A study of Drosophila melanogaster with 24 samples.

Results

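The cytoplasmic ribosomal protein genes of *Drosophila melanogaster* were taken as the protein-coding genes of a Release 6 gene table whose symbol starts with RpL or RpS followed by a digit or a P. The rule gave 92 of the 13922 protein-coding genes of the 4 large autosomal arms, chromosome 4 and the X chromosome. By symbol, 54 were assigned to the large (60S) subunit and 38 to the small (40S) subunit. The rule used symbols and no measured value, and it was set with earlier results of these data known. All 92 had a value in every track and none was filtered out.

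The study asked where Cap-G, a subunit of the condensin I complex that compacts chromosomes, contacts chromatin in dividing neural stem cells (NSCs) and in neurons of the late larval brain. Targeted DamID was used, in which a protein fused to the bacterial Dam methylase marks nearby GATC sites in the cells where a GAL4 driver is active. *UAS-Cap-G-Dam*, or *UAS-LT3-NDam* for Dam alone, was driven by *wor-GAL4* in NSCs, by *elav-GAL4* in young and mature neurons (elav neurons) and by *nSyb-GAL4* in mature neurons (nSyb neurons), all with the temperature-sensitive repressor *tub-GAL80ts*. Each driver had 2 Cap-G-Dam and 2 Dam-only samples of 30 brains, from animals raised at 18°C and moved to 29°C for 24 h before DNA extraction. The cells marked by *elav-GAL4* include those marked by *nSyb-GAL4*, so the neuronal groups overlap. The 12 RNA-seq samples of the series were not analysed here.

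Ribosomal proteins assemble with ribosomal RNA into the particle that makes protein, and their genes are among the most strongly and widely transcribed in growing cells. Many are haploinsufficient in the fly and give the Minute phenotype of slow growth and thin bristles. Most are short genes, many carry small nucleolar RNAs (snoRNAs) in their introns, and several exist as a broadly used copy and a second copy used mainly in the germline.

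The measurement is the log2 of Cap-G-Dam over Dam-only methylation, 1 average per driver, so that a value below 0 means less methylation by the fusion than by Dam alone. Numerator and denominator were not analysed separately. For each gene the fragments were averaged across the annotated span, each counted by the bp it shares with the gene. With 1 averaged track per driver there is no replicate spread, and no SD, interval or p-value accompanies any value below. Levels and differences are therefore descriptions of these averages. The tracks hold 373710 fragments with a median length of 196 bp, and the SD over fragments was 0.30 (NSCs), 0.46 (elav neurons) and 0.36 (nSyb neurons). To set tracks of unequal spread side by side, scaled values were formed by subtracting the protein-coding gene median and dividing by the median absolute deviation, rescaled to match an SD under a normal distribution. A gene is called low below a scaled value of -1 and high above 1. The low threshold lay at log2 ratios of -0.17 (NSCs), -0.23 (elav neurons) and -0.26 (nSyb neurons).

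The ribosomal protein genes had low Cap-G ratios in all 3 cell types. Their median log2 ratio was -0.28 (NSCs), -0.30 (elav neurons) and -0.35 (nSyb neurons), where the medians of all protein-coding genes were 0.00, 0.05 and 0.00. The median gene of the group stood among all protein-coding genes at percentile 10.9 (NSCs), 13.9 (elav neurons) and 11.2 (nSyb neurons). In NSCs 83 of the 92 genes lay below 0, against 50.4% of all protein-coding genes. In elav neurons 76 lay below 0, against 41.3%. In nSyb neurons 85 lay below 0, against 49.4%. The same 68 genes were below 0 in every track, which is 73.9% of the group and compares with 26.8% of all protein-coding genes.

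Called low were 63 genes in NSCs (19.8% of all protein-coding genes were), 50 in elav neurons (17.8%) and 58 in nSyb neurons (17.2%). In all 3 tracks 40 genes were low, 43.5% of the group against 7.58% of all protein-coding genes, and 19 were low in none, 20.7% against 69.6%. Few were high: 3 in NSCs (15.6% of all), 2 in elav neurons (16.5%) and 2 in nSyb neurons (15.8%). Only *RpLP2* and *RpS5b* were above 0 in every track, as were 31.9% of all protein-coding genes. The group is thus set toward low ratios in each track, with a small number of genes outside that range.

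**Figure D1:**
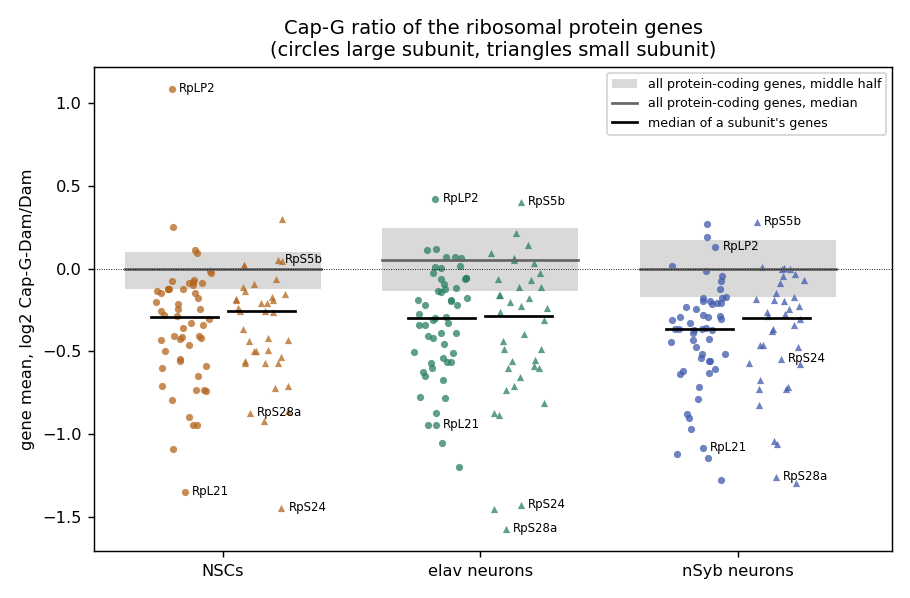
Gene means (y axis, log2 Cap-G-Dam/Dam) of the 92 ribosomal protein genes in the 3 averaged tracks (x axis). Each point is a gene, black lines are medians of the large and small subunit genes, and the grey band and line give the interquartile range and median of all protein-coding genes; most points lie under the band in each track, with *RpLP2* at 1.09 in NSCs the highest.

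Both subunits showed this. The 54 large subunit genes had medians of -0.30 (NSCs), -0.30 (elav neurons) and -0.37 (nSyb neurons). For the 38 small subunit genes the medians were -0.26, -0.29 and -0.30. Low genes made up 64.8% of the large and 73.7% of the small subunit genes in NSCs, 53.7% and 55.3% in elav neurons, and 66.7% and 57.9% in nSyb neurons.

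The genes are short and lie close to other genes, which limits how finely a value belongs to a single gene. Their median length was 1315 bp, from 304 to 4677 bp, against 2163 bp for all protein-coding genes, and they met a median of 5 fragments, against 11. Fragments of 73 of the 92 genes also reached another protein-coding gene, and the share over all protein-coding genes is not given here. *RpL41* and *RpL37-2* rest on 1 fragment each, and 17 genes on 2 or 3. Length itself went with little difference in level. Across the 92 genes, which share tracks and neighbouring fragments, Spearman's rho of level with length was -0.03 (NSCs), 0.08 (elav neurons) and 0.06 (nSyb neurons). The 10192 protein-coding genes within the same range of lengths had medians of 0.00, 0.04 and 0.00. The 62 ribosomal protein genes with at least 5 fragments had medians of -0.30, -0.28 and -0.36, and the 30 with fewer had medians of -0.26, -0.32 and -0.31.

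Low ratios were found on every arm. On 2L the 19 genes had medians of -0.43 (NSCs), -0.44 (elav neurons) and -0.33 (nSyb neurons). On X the 14 genes had medians of -0.20, -0.18 and -0.26, nearer to 0 than on 2L in each track. *RpS3A*, the only member on the small chromosome 4, had values of -0.53, -0.60 and -0.67. Medians of all protein-coding genes of each arm are not given here, so whole arms may differ too. *RpL21*, *RpL5* and *RpL15* lie in the last 2 Mb of 2L and 3L, near the centromeres, and all 3 were low in every track. Of the 95 protein-coding genes of those stretches, 28.4% (NSCs), 22.1% (elav neurons) and 14.7% (nSyb neurons) were low. Their medians were -0.03, 0.00 and 0.00, with 55, 46 and 40 genes below 0 and 14, 23 and 28 above. The rest read exactly 0 and so could not be called low. Whether such a 0 is a measured value was not tested.

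The low ratio reached past the gene ends and faded within a few kb. A fragment that crosses a gene end counts in both the gene and its flank. A median of 62.4% of the bp of a member's fragments lay inside the gene. Values next to the gene therefore partly repeat those of the gene. The gene table holds no strand, so flanks are given by coordinate and not as upstream or downstream. The 1 kb flank on the lower side had a median of -0.15 (NSCs), -0.16 (elav neurons) and -0.22 (nSyb neurons). On the higher side the medians were -0.19, -0.23 and -0.21. The gene was below both of its flanks for 36 of 92 members in NSCs (17.5% of all protein-coding genes were below both of theirs), for 28 in elav neurons (19.7%) and for 37 in nSyb neurons (20.7%), so at the other members at least 1 flank was as low as the gene or lower. The mean over members fell from near the level of all genes at 3 to 4 kb to -0.31, -0.31 and -0.36 in the first bin outside the gene, and to -0.35, -0.36 and -0.40 in the gene. All protein-coding genes also dipped next to their ends, to -0.13, -0.05 and -0.08 in that bin, and returned to -0.03, 0.03 and -0.02 within the gene.

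**Figure D2:**
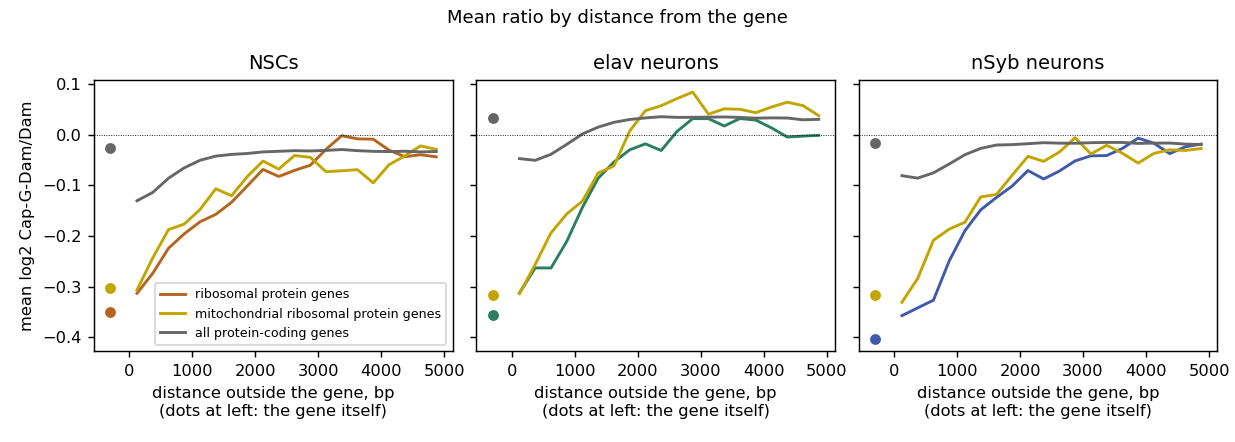
Mean log2 Cap-G-Dam/Dam (y axis) by distance outside the gene in bp (x axis, both sides pooled), for ribosomal protein genes (track colour), mitochondrial ribosomal protein genes (yellow) and all protein-coding genes (grey), with the gene itself as a dot at the left. The ribosomal protein genes lie at -0.31, -0.31 and -0.36 beside the gene and meet the grey line by about 3 to 4 kb.

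Set against nearby genes, the members were again low. Neighbours were the nearest protein-coding genes on each side that neither overlapped the gene nor belonged to the ribosomal protein genes. The ribosomal protein gene was lower than both neighbouring protein-coding genes at 57 members in NSCs (30.8% of all protein-coding genes were below both of theirs), at 51 in elav neurons (30.5%) and at 59 in nSyb neurons (30.3%).

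The lowest single values belonged to small and large subunit genes alike. *RpS24*, encoding a 40S protein, had values of -1.44 (NSCs), -1.43 (elav neurons) and -0.55 (nSyb neurons) over 3 fragments. Its longest fragment in the gene read -1.74, -2.01 and -0.35. The nSyb average is the one that stands apart there. *RpL21*, a 60S gene, had values of -1.35, -0.94 and -1.08, also over 3 fragments. *RpS28a*, whose protein is a small 40S component, had values of -0.87, -1.57 and -1.26 and is the shortest member. *RpS9*, encoding a 40S protein that binds early in small subunit assembly, had values of -0.71, -1.45 and -1.06. These 4 genes were low in every track.

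Among genes with at least 5 fragments, *RpL15* was the lowest in NSCs. This 60S gene had values of -1.09 (NSCs), -0.94 (elav neurons) and -1.15 (nSyb neurons), and no other protein-coding gene meets its fragments. *RpL6* was the lowest in elav neurons, with values of -0.71, -1.05 and -1.27. *RpS30*, whose 40S protein is made as a fusion with a ubiquitin-like domain, was the lowest in nSyb neurons, with values of -0.50, -0.87 and -1.30. Each of the 3 was low in every track, though they changed places in the order.

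Also among the lowest were *RpL13A*, *RpS29* and *RpL32* in NSCs, *RpS16* and *RpL36* in elav neurons, and *RpL39* and *RpL32* in nSyb neurons. *RpL32*, often used as a reference gene in fly expression work under the name rp49, had values of -0.74 (NSCs), -0.62 (elav neurons) and -0.88 (nSyb neurons). *RpL13A* had values of -0.95, -0.57 and -0.72. For *RpL36* the values were -0.73, -0.87 and -0.62. All of these were low in every track. *RpL39*, with values of -0.59, -0.46 and -0.97, overlaps the end of *RpL12*, so that part of its signal is shared with that gene.

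*RpLP2* was the exception at the upper end. It encodes an acidic protein of the ribosomal stalk, the flexible arm that recruits translation factors. Its value was 1.09 (NSCs), 0.42 (elav neurons) and 0.13 (nSyb neurons), or 6.59, 1.32 and 0.51 as scaled values. The gene spans 16586129 to 16586732 on 2R (Release 6) and met 4 fragments, none shared with another protein-coding gene. The fragment at its lower edge read -0.23, -0.38 and -0.19, and the one at its higher edge read 1.77, 0.86 and 0.32. The high values thus lay on the higher-coordinate side of the gene in all 3 tracks.

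The other stalk genes were unlike it. *RpLP0*, the base to which the acidic proteins attach, had values of -0.12 (NSCs), -0.39 (elav neurons) and -0.23 (nSyb neurons). *RpLP1*, the partner of RpLP2, had values of -0.15, -0.56 and -0.28. Both were below 0 in every track. *RpLP0* was low in elav neurons only, and *RpLP1* in elav and nSyb neurons.

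RpL5 and RpL11 bind 5S rRNA together before it joins the large subunit. *RpL5*, the longer gene, with 20 fragments, had values of -0.55 (NSCs), -0.50 (elav neurons) and -0.63 (nSyb neurons). *RpL11* had values of 0.11, -0.06 and 0.01 over 10 fragments. The former was low in every track and the latter in none.

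RpS27A and RpL40 are each made as a fusion with ubiquitin. *RpS27A* had values of -0.49 (NSCs), -0.22 (elav neurons) and -0.38 (nSyb neurons) and was low in NSCs and nSyb neurons. *RpL40* had values of -0.12, -0.19 and -0.17 and was low in none. *RpS6*, whose protein is phosphorylated by S6 kinase downstream of TOR signalling, was low in every track at -0.43, -0.56 and -0.48. *S6k*, the kinase gene, had values of 0.02, 0.12 and -0.03 and was low in none.

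**Figure D3:**
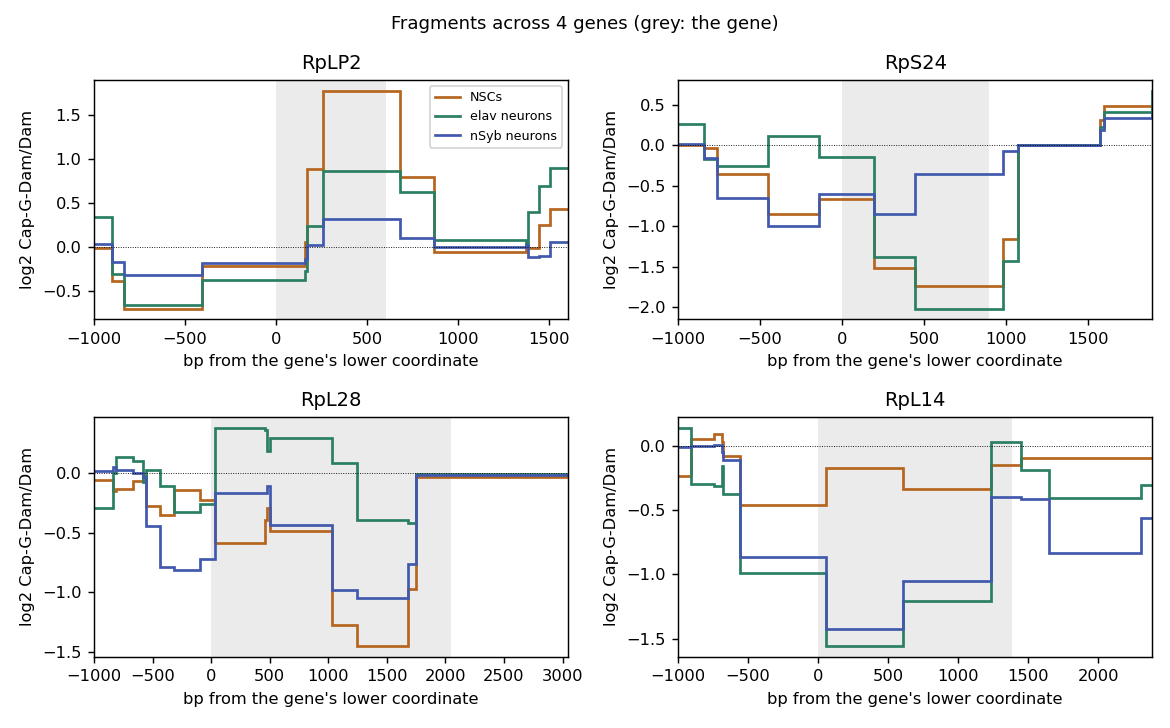
Log2 Cap-G-Dam/Dam of each GATC fragment (y axis) across *RpLP2*, *RpS24*, *RpL28* and *RpL14* and 1 kb on either side, by distance in bp from the lower coordinate of the gene (x axis), with the gene shaded and a line per averaged track. The NSC line of *RpLP2* reaches 1.77 on the higher side of the gene, and *RpS24* falls to -2.01 in elav neurons while nSyb neurons read -0.35 in the same fragment.

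Bound regions were called where 2 or more neighbouring fragments exceeded a threshold, with a false discovery rate (FDR) taken against fragments in random order. At an FDR of 0.01% no region overlapped a ribosomal protein gene itself. Within the gene or its 1 kb flanks, a region was found for 1 member in NSCs (6.49% of all protein-coding genes had one), 2 in elav neurons (10.5%) and 1 in nSyb neurons (9.74%). These were *RpS29* in NSCs and nSyb neurons, and *RpS28-like* and *RpL6* in elav neurons. Among the 10192 protein-coding genes within the members' range of lengths, 477 (NSCs), 762 (elav neurons) and 806 (nSyb neurons) had a region. The region beside *RpS29* had a mean of 0.49 over 14 fragments in NSCs and 0.66 over 10 fragments in nSyb neurons, while the gene read -0.86 and -0.57. Beside *RpL6* the region had a mean of 0.74, and the gene read -1.05.

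At an FDR of 1%, regions in the gene or its flanks were found for 7 members in NSCs (28.2% of all), 6 in elav neurons (28.5%) and 5 in nSyb neurons (28.8%). Those meeting the gene itself were at *RpLP2*, *RpL22-like* and *RpS10a* in NSCs, with means of 1.40, 0.27 and 0.36. In elav neurons they were at *RpS5b* (0.52) and *RpS3* (0.66). In nSyb neurons the same genes, *RpS5b* (0.53) and *RpS3* (0.39), had one. The region at *RpS3*, encoding a 40S protein at the mRNA entry site, covered only its higher-coordinate end, and its gene means were -0.24, 0.05 and -0.07.

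Paralogues are copies of a ribosomal protein gene within the genome, here 14 pairs made from 27 genes by the endings of their symbols (a and b, 1 and 2, or -like), with *RpS28b* in a pair with each of its copies. The absolute difference between the members of a pair had a median of 0.22 (NSCs), 0.18 (elav neurons) and 0.19 (nSyb neurons). The widest pair was *RpS28b* and *RpS28-like* in NSCs (0.66 apart), and *RpS28a* and *RpS28b* in elav (1.02) and nSyb neurons (0.92). In elav and nSyb neurons *RpS28a* was the lower gene of its pair. In 5 of the 14 pairs the second-named gene was higher in all 3 tracks, in 0 the first-named, and in 9 the order differed between tracks.

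Members in a pair were nearer to 0 than the other 65. Their medians were -0.12 (NSCs), -0.14 (elav neurons) and -0.19 (nSyb neurons), and those of the other members -0.42, -0.40 and -0.43. Low calls were made for 10, 8 and 7 of the 27 paired genes, and for 53, 42 and 51 of the other 65, where 19.8%, 17.8% and 17.2% of all protein-coding genes were low.

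Some pairs hold a copy known mainly from the germline. The 4 described next were picked by that background knowledge after their values had been seen, and their ratios were high in some tracks and low in others. The other pairs were not sorted by such use. In each of the 4 the broadly used copy lies on X and the germline copy on an autosome. Copy type and chromosome therefore cannot be told apart in them. *RpL22-like*, used in the testis, had values of 0.25 (NSCs), -0.14 (elav neurons) and 0.27 (nSyb neurons). Its broadly used partner *RpL22* had values of -0.21, -0.20 and -0.51. The copies were 0.46 apart (NSCs), 0.06 (elav neurons) and 0.79 (nSyb neurons).

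*RpS5b*, used in the ovary, had values of 0.05 (NSCs), 0.40 (elav neurons) and 0.28 (nSyb neurons). *RpS5a*, the broadly used copy and the host of 14 snoRNA genes, had values of -0.17, 0.21 and -0.04. The germline copy was higher by 0.22, 0.19 and 0.33. Within *RpS5b* the tracks were not alike along the gene: its highest-coordinate fragment read 0.46 (NSCs), 0.28 (elav neurons) and -0.74 (nSyb neurons).

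*RpS10a*, used in the testis, had values of 0.30 (NSCs), -0.18 (elav neurons) and -0.73 (nSyb neurons), over 3 fragments. *RpS10b*, the broadly used copy, had values of -0.10, -0.03 and -0.09. The order of this pair therefore turned between NSCs and the neurons. *RpS19b*, a germline copy, had values of 0.02, -0.60 and 0.01, and *RpS19a* had values of -0.19, -0.16 and -0.15. Here the germline copy was the lower one in elav neurons only.

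**Figure D4:**
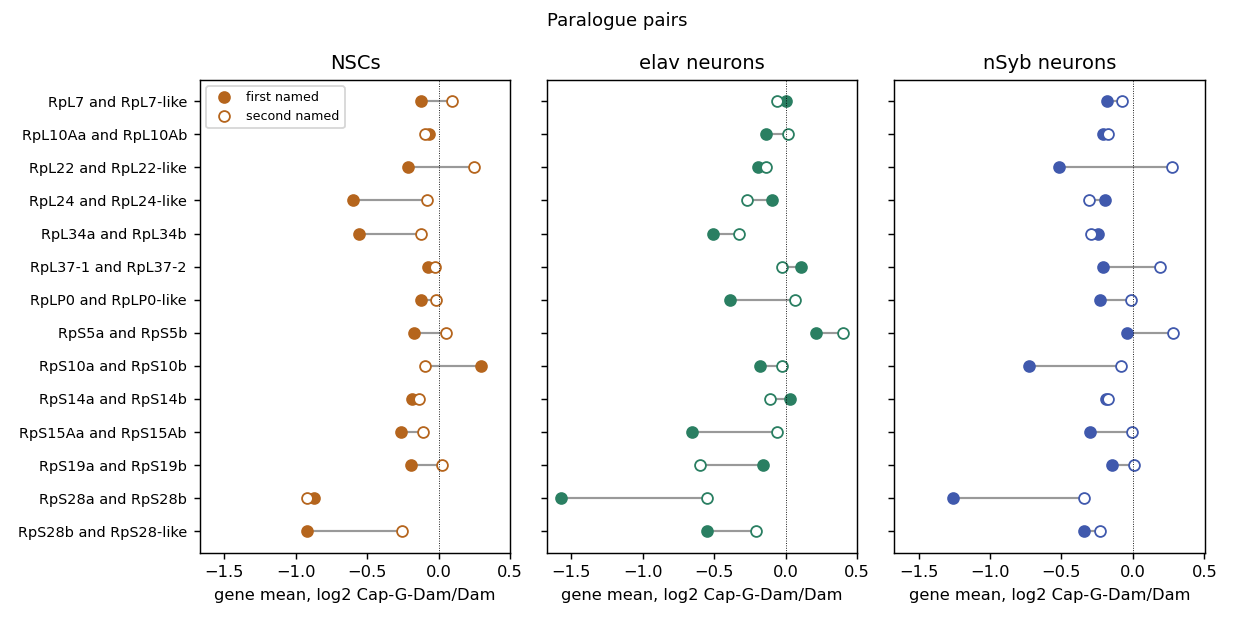
Gene means (x axis, log2 Cap-G-Dam/Dam) of both genes of each paralogue pair (rows) in the 3 averaged tracks, filled for the first-named and open for the second-named gene. The widest gaps are 1.02 and 0.92, between *RpS28a* and *RpS28b* in elav and nSyb neurons.

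Other pairs differed less or in fewer tracks. *RpS15Ab* was above *RpS15Aa* by 0.15 (NSCs), 0.59 (elav neurons) and 0.30 (nSyb neurons). *RpLP0-like* was above *RpLP0* by 0.10, 0.46 and 0.22. *RpL24-like*, whose product acts in 60S assembly rather than in the finished ribosome, was above *RpL24* by 0.52 in NSCs and below it in elav and nSyb neurons. *RpL34b* was above *RpL34a* by 0.43 in NSCs and 0.18 in elav neurons and below it by 0.05 in nSyb neurons. The remaining pairs were *RpL7* and *RpL7-like*, *RpL10Aa* and *RpL10Ab*, *RpL37-1* and *RpL37-2*, and *RpS14a* and *RpS14b*. *RpS14a* and *RpS14b* lie next to each other on X and were at most 0.14 apart.

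Between cell types the members kept much of their order. Spearman's rho across the 92 genes was 0.65 between NSCs and elav neurons, 0.74 between NSCs and nSyb neurons, and 0.67 between elav and nSyb neurons, where over all protein-coding genes it was 0.64, 0.65 and 0.63. The points are genes of the same averaged tracks and are not independent. The median scaled value was -1.71 (NSCs), -1.24 (elav neurons) and -1.37 (nSyb neurons).

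The direction of the difference between NSCs and neurons depended on the scale. On the log2 scale the median of the members minus that of all protein-coding genes was -0.28 in NSCs and further from 0 in the neurons, at -0.35 in elav and -0.35 in nSyb neurons. Divided by the spread of all genes, which was smallest in NSCs, the members were lowest in NSCs. On that scale the median difference from NSCs to elav neurons was 0.51, with 66 genes higher (52.5% of all protein-coding genes were) and 26 lower. More than 1 scaled unit higher were 32 members (16.3% of all protein-coding genes were), and more than 1 lower were 10 (12.0%). From NSCs to nSyb neurons the median was 0.40, with 63 genes higher (52.0%), 27 of them by more than 1 (14.1%), and 8 lower by more than 1 (11.1%). From elav to nSyb neurons it was -0.11, with 39 genes higher (48.2%), 11 of them by more than 1 (12.5%), and 15 lower by more than 1 (12.5%). In percentiles, which do not depend on the spread of each track, the median differences were 3.26, 0.26 and -1.62 points.

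**Figure D5:**
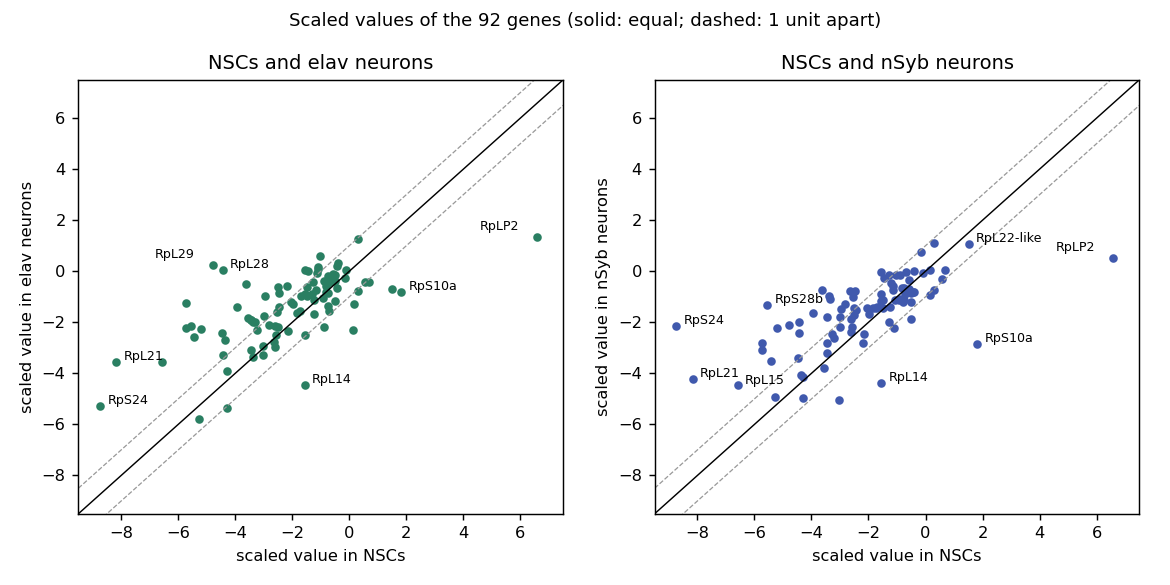
Scaled value of each of the 92 genes in NSCs (x axis) against elav neurons (left, y axis) and nSyb neurons (right, y axis), in units of the spread of all protein-coding genes. The solid line marks equal values and the dashed lines 1 unit; *RpLP2*, *RpS10a* and *RpL14* lie below the lines in both panels, and 32 and 27 genes lie above the upper dashed line.

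*RpL28*, *RpL29* and *RpL21* had the largest upward scaled differences from NSCs to elav neurons. *RpL28* had values of -0.73 (NSCs), 0.06 (elav neurons) and -0.51 (nSyb neurons) over 9 fragments. The fragment over its lower-coordinate part read -0.58, 0.37 and -0.17. *RpL29*, with only 2 fragments, had values of -0.79, 0.12 and -0.54. For both genes the elav average was the one apart from the other tracks.

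*RpS24*, *RpS28b* and *RpL21* had the largest upward differences from NSCs to nSyb neurons. *RpS28b* had values of -0.92 (NSCs), -0.55 (elav neurons) and -0.34 (nSyb neurons). *RpS24*, *RpS19b* and *RpS16* led from elav to nSyb neurons. *RpS16* had values of -0.56, -0.89 and -0.27. Of these only *RpS19b* was outside the low range in 2 of the tracks.

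*RpLP2*, *RpL14* and *RpS10a* had the largest downward differences from NSCs, both to elav and to nSyb neurons. *RpL14*, a 60S gene that holds 2 snoRNA genes, had values of -0.26 (NSCs), -1.20 (elav neurons) and -1.12 (nSyb neurons). A fragment within it read -0.18, -1.56 and -1.43. From elav to nSyb neurons *RpS20* and *RpL29* were among the largest downward differences. *RpS20* had values of -0.18, 0.10 and -0.57. As at *RpL29*, the elav average was the highest of the 3.

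Ribosomal protein genes that host snoRNAs had lower medians than the rest in NSCs and nSyb neurons, and not in elav neurons. The 28 members that hold 74 snoRNA genes had medians of -0.37 (NSCs), -0.28 (elav neurons) and -0.41 (nSyb neurons). The other 64 had medians of -0.26, -0.31 and -0.30. Low calls numbered 25, 15 and 21 of the 28 hosts, and 38, 35 and 37 of the other 64, beside 19.8%, 17.8% and 17.2% of all protein-coding genes.

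Other genes of protein synthesis and turnover were set beside the group. The 73 mitochondrial ribosomal protein genes, which serve the separate ribosome of that organelle, had medians of -0.19 (NSCs), -0.27 (elav neurons) and -0.25 (nSyb neurons), and 56.2%, 50.7% and 49.3% of them were low. The 24 translation factor genes had medians of -0.20, -0.09 and -0.26, with 58.3%, 33.3% and 50% low. *eEF1alpha1*, which delivers aminoacyl-tRNA to the ribosome, was low in every track at -0.53, -0.59 and -0.60. *eEF1alpha2*, its paralogue, read 0.04, -0.13 and -0.35.

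The 26 genes of ribosome biogenesis and its control had medians of -0.05 (NSCs), -0.04 (elav neurons) and -0.15 (nSyb neurons), with 30.8%, 19.2% and 30.8% low. Among them were the ribosomal protein gene *sta* (-0.24, -0.22 and -0.31), which the symbol rule does not take in, and *Rack1* (-0.23, -0.34 and -0.44), whose product sits on the 40S subunit. The 48 proteasome genes had medians of -0.09, -0.05 and -0.16, with 41.7%, 18.8% and 33.3% low. They were taken by symbol and include variant copies such as *Prosalpha3T*, *Rpn12R* and *Rpt6R*, so they are a mixed set. In each track the median of the cytoplasmic ribosomal protein genes was the lowest of these 5 lists. No test of the differences between lists was made.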

How the data were processed

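Cap-G-Dam and Dam-only samples were compared by the authors as log2 ratios per GATC fragment. Reads were mapped with Bowtie2 to BDGP6, normalised with a DamID pipeline and averaged over replicates, and the deposited log2 values are 1 average per driver. The sources used here give neither the way the average was formed nor the depth of each sample. Gene positions came from a RefSeq gene table of Release 6 with neither strand nor exons. Sequences and motifs were not analysed here.

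Gene values, scaled values, percentiles, flanks and regions were computed in Python 3.11.15 (pandas 2.3.3, numpy 2.4.6, scipy 1.17.1; figures with matplotlib 3.10.9), and the code was tested on simulated data. Regions used thresholds at quantiles 0.8, 0.85, 0.9, 0.95 and 0.99 of each track and 20 random orders. They were called on the averages and not in each replicate, and with another program than the study used.

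The members, lists and thresholds were chosen with earlier results of these data known. Of the 51 symbols in the 2 written lists (translation factors, and ribosome biogenesis and control), 50 matched. Genes named are the 5 highest and 5 lowest of each track among those with at least 5 fragments, the 3 largest scaled differences each way in each comparison, all paralogue pairs, members with a region at an FDR of 0.01%, and *RpLP0*, *RpLP1*, *RpLP2*, *RpL5*, *RpL11*, *RpS27A*, *RpL40* and *RpS6*. *RpS9*, *RpS3*, *RpS3A*, *RpL12*, *RpL41* and the genes named from other lists were added after their values were seen. Some genes that the rule names are not reported here.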

Additional observations from a re-analysis of the deposited data

How the results depend on the processing

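No paired analysis was possible because each track is an average over replicates, and for the same reason no replicate could be left out. Of 120 comparisons with another setting, 81 stayed within 0.05 (for counts and shares, within 1.5 times) of the value reported and 39 moved further. A change of sign was seen in 0, but counts and shares cannot change sign, so this covers only medians, distances and differences. Some of the 81 could not move. A background of genes under 5 kb leaves the members' own median log2 ratios as they are. Asking for at least 4 fragments per region removed none, since every region of the main call already had that many. The share of members called low in NSCs (68.5%) could not rise by 1.5 times. Shares called low without the paralogues, 81.5% (NSCs), 64.6% (elav neurons) and 78.5% (nSyb neurons), counted among the 81. Without the paralogues (65 members) the medians were -0.42 in NSCs, -0.40 in elav and -0.43 in nSyb neurons, and their distances from the median of all genes -0.42, -0.45 and -0.43. Without the X chromosome the NSC median and its distance were both -0.33. With genes alone on their fragments (19 members), a setting chosen after seeing the data, the medians in elav and nSyb neurons were -0.44 and -0.46 and the distances -0.35, -0.49 and -0.52. Unweighted medians of fragments gave -0.23 in elav neurons. Low calls at a log2 ratio below -0.5 covered 28.3%, 33.7% and 32.6% of members, against 68.5%, 54.3% and 63.0%. From NSCs to elav neurons (0.51) the difference was 1.10 with unweighted medians, 0.64 with 1 kb flanks, 0.60 with fragments of 200 to 2000 bp, 0.74 without paralogues, 0.45 against genes under 5 kb and 0.91 with genes alone on their fragments. From NSCs to nSyb neurons (0.40) it was 0.84 with unweighted medians, 0.46 with flanks, 0.50 with at least 5 fragments, 0.61 without paralogues, 0.26 against genes under 5 kb and 0.66 with genes alone. From elav to nSyb neurons (-0.11) it was -0.21 with flanks, -0.017 with at least 5 fragments, -0.22 without paralogues and -0.57 with genes alone. Members with a bound region numbered 7, 6 and 5 at an FDR of 1%, and 0, 0 and 0 where the region had to overlap the gene, against 1, 2 and 1. The causes of these moves were not tested. Shares of members replaced the planned numbers of members called low, since the settings differ in how many members they hold. The depth behind each value is unknown.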
